A study of Sus scrofa with 4 samples.

Results

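The collagen gene family was examined in cultured pig preadipocytes as they turned into adipocytes. Members were the protein-coding genes whose symbol is COL, a number, A and a number, and 41 of 16192 protein-coding genes qualified, among 31567 listed features. They comprised 10 fibrillar genes, 7 basement membrane genes (COL4, COL15 and COL18), 4 COL6 genes and 20 genes of other types. All 41 were paired with the RefSeq pig annotation (Sscrofa11.1). COL2A1, COL6A1 and COL4A4 were not analysed here.

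Preadipocytes came from collagenase-digested subcutaneous fat of male Chinese Erhualian piglets aged 5 days and were grown as primary cultures. D0 was the confluent culture before induction, D2 followed 2 days of dexamethasone, 3-isobutyl-1-methylxanthine and insulin, D4 followed 2 more days of insulin alone, and D8 followed further days in growth medium. RNA of 3 piglets was pooled in equal amounts into 1 ribosomal RNA-depleted library per stage. There are therefore 4 libraries and no replicates, no test between stages was possible, and stage and library cannot be told apart. Levels are FPKM, in which fragments are scaled by transcript length and by all fragments counted in the library. Where 4 values follow each other, they are in the order of the stages, from D0 to D8.

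Collagens are secreted proteins whose chains wind into a triple helix. Fibrillar types form the tensile fibres of connective tissue, type IV forms the sheet of the basement membrane, and type VI forms beaded filaments close to cells. A fat precursor lies among fibrils, whereas a mature fat cell is wrapped in its own basement membrane, so adipose tissue is known for a matrix that is rebuilt as fat cells form.

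The files gave 54128151 to 75387428 fragments per library. Adipocyte markers were present, and the summed FPKM of 9 of them was 122, 491, 1750 and 2081. The rise from D4 to D8 lay in FABP4 (853 to 1557) and CIDEC (5.01 to 54.6). Of 7 reliably expressed adipocyte markers, 0 were at least 2-fold higher at D8 vs D4 (4.43% of all mRNAs) and 4 at least 2-fold lower (10.1%). The median log2 ratio of the 7 markers was -1.01. All 7 fibroblast and mesenchymal stromal markers were at FPKM of at least 1 in each library, with sums of 3354, 1631, 1579 and 2384. That sum followed VIM (2952, 885, 766 and 1898). At D2 vs D0, 3 of the 7 were at least 2-fold higher (6.67% of all mRNAs) and 1 lower (10.1%). At D4 vs D0, 3 were again higher (10.4%) and 1 lower (8.81%). The median log2 ratios of the 7 were 0.77 and 0.98. LUM (32.6, 128, 186 and 77.0), DCN (154, 264, 330 and 232) and PDGFRB (12.4, 20.9, 28.8 and 12.0) were highest at D4, as several collagen genes were. PDGFRA (75.8, 189, 149 and 60.8) and FAP (20.8, 43.2, 30.7 and 25.3) were highest at D2. THY1 (105, 101, 88.0 and 78.8) was highest at D0, as VIM was. The part of stromal cells in the collagen levels was not tested. The sum of 5 smooth muscle and myofibroblast markers went from 6205 at D0 to 664 at D2 and 509 at D4, then back to 4810 at D8. In that list ACTA2 (2907, 324, 225 and 2762) and TAGLN (2767, 297, 277 and 1987) carried most of the level. CNN1 (94.3, 4.22, 2.39 and 24.2) and DES (436, 37.7, 4.05 and 35.7) stayed at least 2-fold lower at D8 vs D0. MYH11, which defines smooth muscle, was under FPKM 1 in all 4 libraries. Signal recognition particle RNA took 12.4% and 12.5% of fragments at D0 and D4 against 17.1% and 16.5% at D2 and D8. The median log2 ratio over 9191 reliably expressed mRNAs was -0.21 for D8 vs D4 and -0.18 for D8 vs D0, so ratios to D8 are read against those shifts. In the other comparisons it lay between -0.03 and 0.09.

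Collagen mRNA was abundant at every stage, and the deposited FPKM summed highest at D4. The 41 genes summed to FPKM 3880, 5700, 6478 and 5620. These sums were 1.47-fold, 1.67-fold and 1.45-fold the D0 sum at D2, D4 and D8. With median-ratio scaling the ratios were 1.607 at D4 and 1.614 at D8, so the peak at D4 depends on the scaling. Collagen fragments made up 2.21% of all fragments at D0 (95% Wilson interval 2.206% to 2.213%), 3.09% at D2 (3.090% to 3.099%), 3.52% at D4 (3.514% to 3.522%) and 3.05% at D8 (3.048% to 3.057%). These intervals, and all others given here, cover counting error only, since fragments copied by PCR are not independent molecules and the spread between cultures was not measured. In bulk RNA, fewer cells of a type and less RNA per cell cannot be told apart, and this holds for each level below.

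The sum rested on few genes. COL1A2 supplied 51.2%, 51.0%, 40.8% and 44.2% of collagen FPKM at D0, D2, D4 and D8. COL3A1 supplied 12.6%, 22.6%, 31.8% and 28.9%. Of the rise of 2598 FPKM from D0 to D4, COL3A1 accounted for 60.3% and COL1A2 for 25.4%. Without COL1A2 the ratio to D0 was 1.48 at D2, 2.02 at D4 and 1.66 at D8. Basement membrane genes rose from 3.06% of collagen FPKM at D0 to 7.89% at D2 and 8.93% at D4, and stood at 3.26% at D8. Fibrillar genes held 89.6%, 87.5%, 85.7% and 92.5%.

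**Figure D1:**
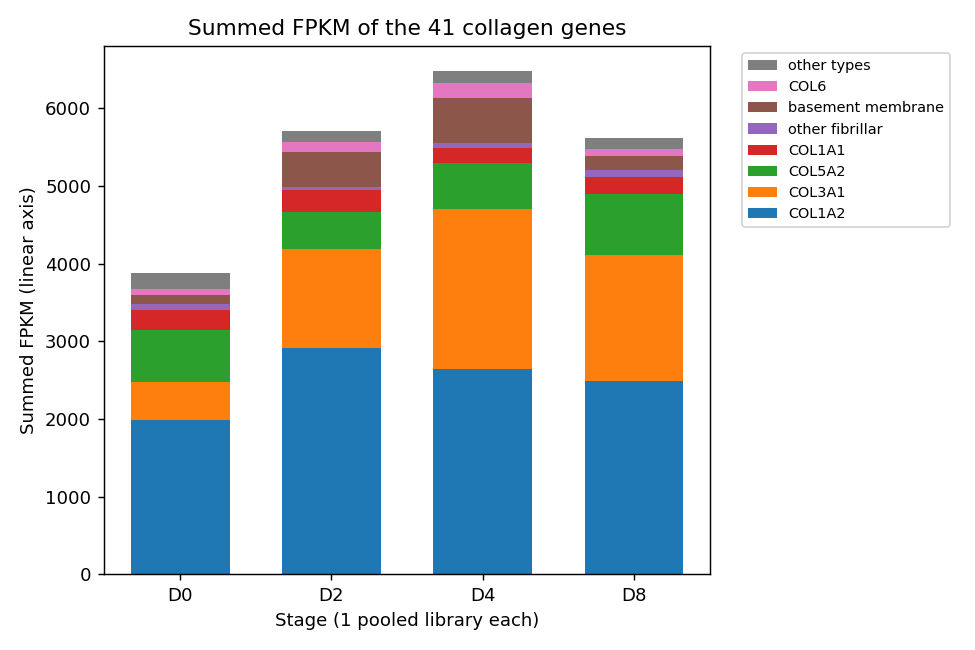
Stacked bars give the summed FPKM (linear axis from 0) of the 41 collagen genes in each of the 4 libraries, split into the 4 leading fibrillar genes and the other groups. The COL3A1 band widens from 491 at D0 to 2058 at D4, and the basement membrane band from 119 to 578, while the COL1A2 band stays between 1987 and 2907.

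Genes with FPKM of 1 or more in 3 or 4 libraries were taken as reliably expressed, and 20 of the 41 members met it. These 20 were 8 fibrillar, 5 basement membrane, 2 COL6 and 5 other genes. A gene was called higher or lower at a ratio of at least 2 on log2(FPKM + 0.01), a scale that understates the change of low genes. At D2 vs D0, 6 of the 20 were higher, against 6.67% of all reliably expressed mRNAs, and 2 were lower, against 10.1%. At D4 vs D2, 4 were higher (4.24% of all mRNAs) and 2 lower (0.838%). At D8 vs D4, 3 were higher (4.43%) and 6 lower (10.1%). At D4 vs D0, 8 were higher (10.4%) and 4 lower (8.81%). At D8 vs D0, 5 were higher (3.6%) and 0 lower (3.68%). The 3 comparisons with D0 share the D0 library.

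The levels of the reliably expressed genes peaked at different stages. Of the 20, 9 had their highest level at D4, 6 at D8, 3 at D0 and 2 at D2. The share of all mRNAs highest in each library was not computed, so these counts have no share beside them. With median-ratio scaling COL18A1 was highest at D8, which made these counts 8 at D4 and 7 at D8. Their median log2 ratio was 0.25 for D2 vs D0, 0.56 for D4 vs D0 and 0.56 for D8 vs D0. For D4 vs D2 it was 0.29, and for D8 vs D4 it was -0.16, which became 0.05 under median-ratio scaling.

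**Figure D2:**
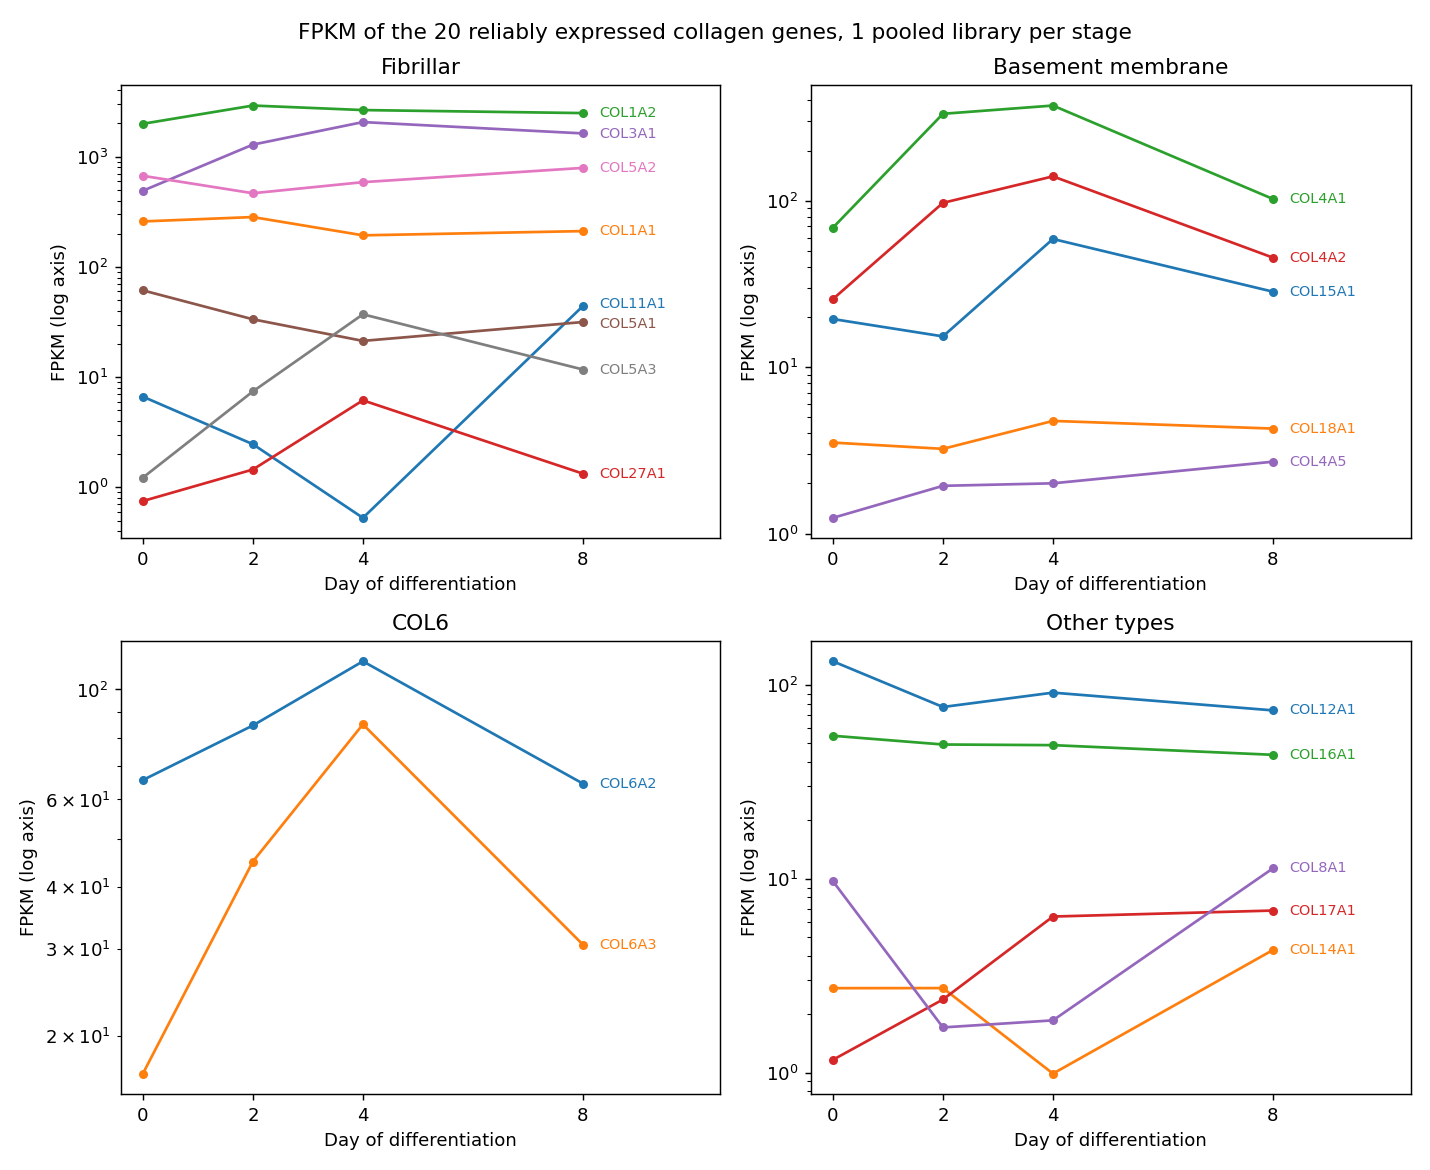
Each line is 1 collagen gene, with the day of differentiation on the x axis and FPKM (log axis) on the y axis, in 4 panels by type for the 20 reliably expressed genes; each point is 1 pooled library. COL4A1, COL4A2, COL6A3, COL5A3 and COL27A1 peak at D4, whereas COL11A1 has its lowest point there (0.529) and its highest at D8 (44.1).

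Type I and type III collagen are the main fibre-forming collagens of connective tissue, and their genes behaved differently. COL1A2 (chromosome 9, 74174484 to 74210407) had FPKM 1987, 2907, 2646 and 2484, and was within 2-fold in all 5 comparisons. It ranked between 14 and 26 of all protein-coding genes by FPKM. COL1A1 (chromosome 12, 26379087 to 26397180), which encodes its partner chain, had FPKM 258, 283, 193 and 211. COL1A1 was likewise within 2-fold throughout and was lowest at D4.

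COL3A1 (chromosome 15, 93556914 to 93595678), the single chain of type III collagen, was the abundant gene that rose. Its FPKM was 491, 1286, 2058 and 1624. This corresponds to log2 ratios to D0 of 1.39 (95% counting interval 1.38 to 1.40), 2.07 (2.06 to 2.08) and 1.73 (1.72 to 1.74). COL3A1 moved from rank 137 of all protein-coding genes at D0 to rank 26 at D4.

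Within a library, the FPKM ratio of COL3A1 to COL1A2 went from 0.247 at D0 to 0.442 at D2, 0.778 at D4 and 0.654 at D8. This ratio does not depend on the library total. In the type I protein the COL1A1 chain is the more frequent one, whereas COL1A2 had the higher FPKM in each library. COL1A2 over COL1A1 was 7.69, 10.3, 13.7 and 11.8. These levels rest on the transcript lengths behind FPKM, 5087 bases for COL1A2 and 6140 for COL1A1, and a length error would scale all 4 ratios alike.

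Type V collagen is a minor fibrillar type that is built into type I fibrils and limits their width. COL5A2 (chromosome 15, 93611856 to 93981131) had FPKM 670, 466, 587 and 790 and was within 2-fold in each comparison. It lies tail to tail with COL3A1, 16177 bases away. COL5A1 (chromosome 1, 273934219 to 274083264) had 61.2, 33.5, 21.3 and 31.6, with a log2 ratio of -1.52 for D4 vs D0 (-1.56 to -1.49). COL5A3 (chromosome 2, 68828197 to 68869914) had 1.23, 7.42, 37.1 and 11.7.

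The 3 type V genes thus took 3 courses, and COL5A3 had the largest rise of all collagens at D4 vs D0, also with a pseudocount of 0.1 or 1. At D2 and D8 it led with the smaller pseudocounts, whereas with a pseudocount of 1 COL4A1 was ahead at D2 (2.26 against 1.92) and COL11A1 at D8 (2.56 against 2.52). Its log2 ratio to D0 was 2.59 at D2, 4.91 at D4 (4.81 to 5.04) and 3.25 at D8. At D4 vs D0 it ranked 30 of 9191 mRNAs. The FPKM of COL5A1 was 50.0 times that of COL5A3 at D0 (46.1 to 54.2), 4.51 times at D2, 0.574 times at D4 (0.559 to 0.588) and 2.70 times at D8. At D4 alone, COL5A3 was the higher of the pair.

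COL11A1 (chromosome 4, 115638381 to 115841679) encodes a chain of type XI collagen, a close relative of type V that is best known from cartilage. Its FPKM was 6.65, 2.46, 0.529 and 44.1. The D4 and D8 values rest on 275 and 16716 fragments. It fell by 3.63 on the log2 scale at D4 vs D0 and rose by 6.36 at D8 vs D4 (6.21 to 6.56), which was the largest rise of all 9191 mRNAs in that comparison. COL11A1 kept that rank with a pseudocount of 0.1 or 1. The COL5A1 level was 9.21 times that of COL11A1 at D0, 13.6 times at D2, 40.3 times at D4 and 0.716 times at D8.

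Of the 3 cartilage markers with a value, ACAN was at 0 in 3 libraries and at 0.00427 at D4. SOX9 was at 0.182, 0.340, 0.565 and 0.112. The list summed to FPKM 1.49, 18.5, 10.05 and 0.850, almost all of it COMP (1.31, 18.2, 9.48 and 0.739), which was high at D2 and D4. The part of cells carrying these markers in the COL11A1 level was not tested. The partner gene COL11A2 was under FPKM 0.1 in all 4 libraries.

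COL27A1, a fibrillar collagen also described in cartilage, took the opposite course to COL11A1. FPKM was 0.751, 1.45, 6.16 and 1.33. The log2 ratio was 3.02 for D4 vs D0 (2.89 to 3.18) and -2.20 for D8 vs D4 (-2.34 to -2.08). COL24A1, the remaining fibrillar gene, stayed between 0.128 and 0.175.

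The basement membrane genes were higher in sum after D0, and 4 of the 5 reliably expressed ones were highest at D4, with COL18A1 among them only on the deposited scale or after scaling to the protein-coding sum. Their summed FPKM was 119, 450, 578 and 183, or 3.79-fold, 4.87-fold and 1.54-fold the D0 level. All 5 reliably expressed genes had a positive log2 ratio at D4 vs D0 and at D8 vs D0, the smallest being 0.43 and 0.28. The median over all mRNAs was 0.06 and -0.18 in these comparisons, and the share of all mRNAs with a positive ratio was not computed. At least 2-fold higher were 3 of the 5 basement membrane genes at D4 vs D0 (10.4% of all mRNAs) and 1, COL4A5, at D8 vs D0 (3.6%).

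COL4A1 and COL4A2 encode the chains of the type IV trimer found in nearly all basement membranes. COL4A1 had FPKM 68.8, 332, 373 and 102. COL4A2 had 25.6, 96.9, 140 and 45.4. Both were high at D2 and D4 and low at D0 and D8.

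The log2 ratio of COL4A1 was 2.27 for D2 vs D0 (2.25 to 2.29), 2.44 for D4 vs D0 and -1.86 for D8 vs D4 (-1.88 to -1.85). For COL4A2 the same comparisons gave 1.92, 2.45 and -1.62. The genes lie head to head on chromosome 11 (COL4A1 76858332 to 76997409 on the minus strand, COL4A2 76996885 to 77161617 on the plus strand), and their annotated spans overlap by 525 bases, where reads can be told apart only by strand. COL4A1 over COL4A2 stayed between 2.25 and 3.43, a narrow range beside the 5.42-fold and 5.46-fold spread of each gene over the 4 libraries.

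The other type IV genes were low. COL4A5, a chain of the basement membranes of kidney and smooth muscle, had FPKM 1.24, 1.93, 2.003 and 2.70. Its log2 ratio of 1.11 for D8 vs D0 had an interval of 0.97 to 1.27, which includes a ratio below 2-fold. COL4A6, its neighbour on the X chromosome, was between 0.0458 and 0.248, and COL4A3 was at 0 in 3 libraries and at 0.00850 at D2.

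COL15A1 and COL18A1 encode proteoglycan-type collagens of the basement membrane zone. COL15A1 had FPKM 19.4, 15.3, 58.8 and 28.4. It was therefore not raised at D2, when COL4A1 already was, and rose by 1.94 on the log2 scale at D4 vs D2 (1.90 to 1.99). Its fall at D8 vs D4, by 1.05, was no longer 2-fold under median-ratio scaling. COL18A1 had 3.52, 3.23, 4.75 and 4.27 and was within 2-fold in all 5 comparisons.

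Endothelial cells also make type IV collagen. The 5 endothelial markers summed to FPKM 2.65, 1.16, 1.76 and 1.90, nearly all of it PECAM1 (2.56, 1.14, 1.70 and 1.87). CDH5, VWF, TEK and KDR were at 0 or under 0.1 in every library. The part of endothelial cells in the COL4A1 and COL4A2 levels was not tested.

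Type VI collagen, abundant in fat tissue, was represented by COL6A2 and COL6A3. COL6A2, on an unplaced scaffold, had FPKM 65.7, 84.6, 114 and 64.6 and was within 2-fold throughout. COL6A3 (chromosome 15, 137011549 to 137103687), whose product carries the endotrophin fragment, had 16.8, 45.0, 85.1 and 30.6.

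Both were highest at D4, COL6A3 by the wider margin. The log2 ratio of COL6A3 was 1.42 for D2 vs D0, 2.34 for D4 vs D0 (2.31 to 2.37) and -1.48 for D8 vs D4. COL6A2 over COL6A3 was 3.91, 1.88, 1.34 and 2.11. COL6A5 and COL6A6, which encode alternative partner chains, were under FPKM 0.1 in all libraries.

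**Figure D3:**
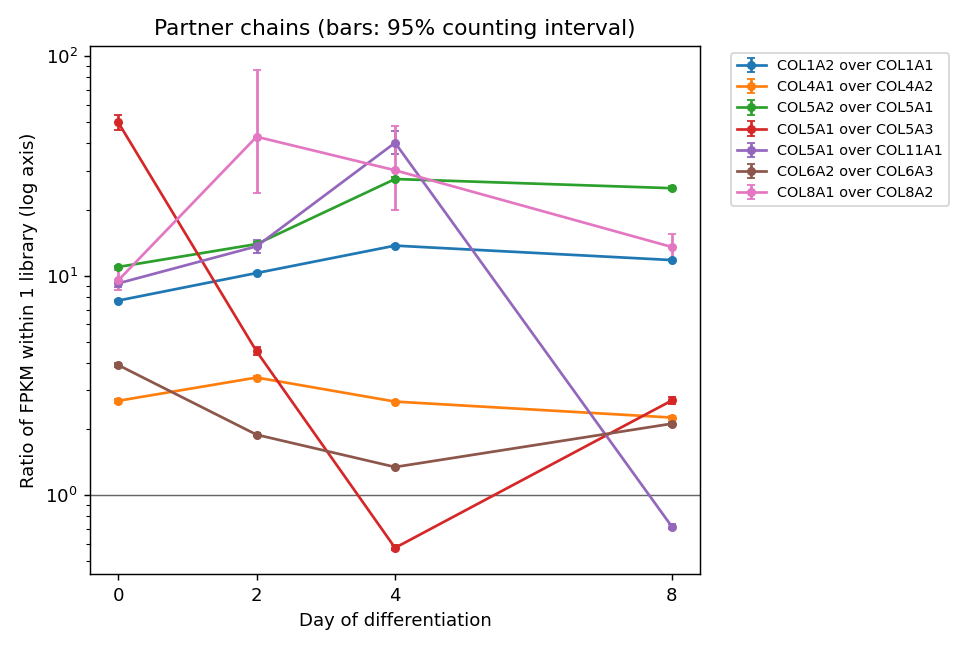
Lines give the ratio of FPKM of 2 partner or related collagen chains within 1 library (log axis) against the day of differentiation, with bars for the 95% counting interval. COL4A1 over COL4A2 stays between 2.25 and 3.43, whereas COL5A1 over COL5A3 runs from 50.0 at D0 to 0.574 at D4 and COL5A1 over COL11A1 from 40.3 at D4 to 0.716 at D8.

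Fibril-associated collagens coat the surface of fibrils. COL12A1 had FPKM 132, 76.8, 91.1 and 73.8, and COL16A1 had 54.6, 49.2, 48.8 and 43.5. Both were highest at D0 and within 2-fold in all comparisons. COL14A1 had 2.72, 2.73, 0.987 and 4.29, with a log2 ratio of -1.46 for D4 vs D0 and 2.11 for D8 vs D4. With a pseudocount of 1 the former was -0.91 and no longer 2-fold.

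COL17A1, a transmembrane collagen known from epithelial hemidesmosomes, was low and rose. Its FPKM was 1.16, 2.38, 6.38 and 6.85. At D2 vs D0 the log2 ratio of 1.03 (0.87 to 1.20) did not lie clear of 2-fold, and at D4 and D8 it was 2.44 and 2.55. The epithelial markers summed to 5.19, 9.92, 17.6 and 26.3, of which KRT8 was 4.46, 8.247, 15.8 and 25.1, while EPCAM and CDH1 were under FPKM 1 in every library. The part of epithelial cells in the COL17A1 level was not tested.

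COL8A1 and COL8A2 encode short chains that form hexagonal networks and are known from vessel walls and the cornea. COL8A1 had FPKM 9.70, 1.71, 1.86 and 11.3. COL8A2, below the filter, had 1.02, 0.0398, 0.0615 and 0.838. Both were low at D2 and D4 and near the D0 level at D8.

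For COL8A1 the log2 ratio was -2.50 for D2 vs D0 (-2.64 to -2.37) and 2.60 for D8 vs D4 (2.49 to 2.72). COL26A1, also below the filter, had 0.816, 0.263, 0.0711 and 0.885, and was likewise low at D2 and D4. The sum of 5 smooth muscle and myofibroblast markers was at 10.7%, 8.20% and 77.5% of its D0 level at D2, D4 and D8. The return of this sum at D8 lay mostly in ACTA2 and TAGLN. All 4 reliably expressed markers of the list were at least 2-fold higher at D8 vs D4 (4.43% of all mRNAs), with a median log2 ratio of 3.24. CNN1 (2.39 to 24.2) and DES (4.05 to 35.7) were among them, yet remained at least 2-fold lower at D8 vs D0. MYH11 did not rise again. COL8A1 was at 17.6%, 19.2% and 117%, and COL11A1 at 37.0%, 7.95% and 664% of D0. The part of cells carrying these markers in the levels was not tested.

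**Figure D4:**
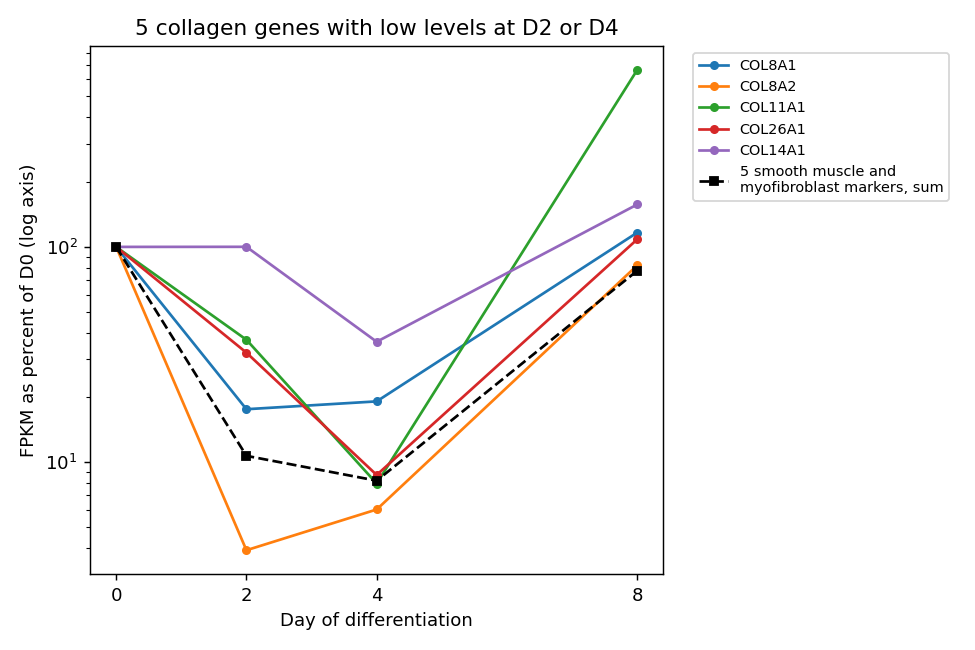
FPKM as a percentage of the D0 level (log axis) is plotted against the day of differentiation for COL8A1, COL8A2, COL11A1, COL26A1 and COL14A1, chosen after their values were seen, with the sum of 5 smooth muscle and myofibroblast markers as a dashed line. At D2 the marker sum is at 10.7% while COL14A1 is still at 100.1% and the other genes lie between 3.90% and 37.0%; at D4 the marker sum is at 8.20% and the genes lie between 6.03% and 36.2%, and at D8 the sum is at 77.5% and the genes are between 82.1% and 664%.

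The other 21 members did not reach the filter. Of these, 19 were under FPKM 1 in every library, and 15 were under 0.1 in every library. At the smallest gene length that fits their values, those under 0.1 had at most 45 fragments in any library. Those 15 were COL4A3, COL6A5, COL6A6, COL9A1, COL9A2, COL9A3, COL10A1, COL11A2, COL13A1, COL19A1, COL20A1, COL22A1, COL23A1, COL25A1 and COL28A1. A value of 0 in at least 1 library was found for 11 members. A count of 0 allows up to 3 fragments. Over all 21 members below the filter and all libraries, 3 fragments equal FPKM 0.00341 to 0.0532, depending on fitted gene length and library. COL7A1, the anchoring fibril collagen, came closest to the filter with 0.633, 0.660, 1.53 and 1.31. COL21A1, a fibril-associated type, had 0.0604, 0.311, 0.144 and 0.

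**Figure D5:**
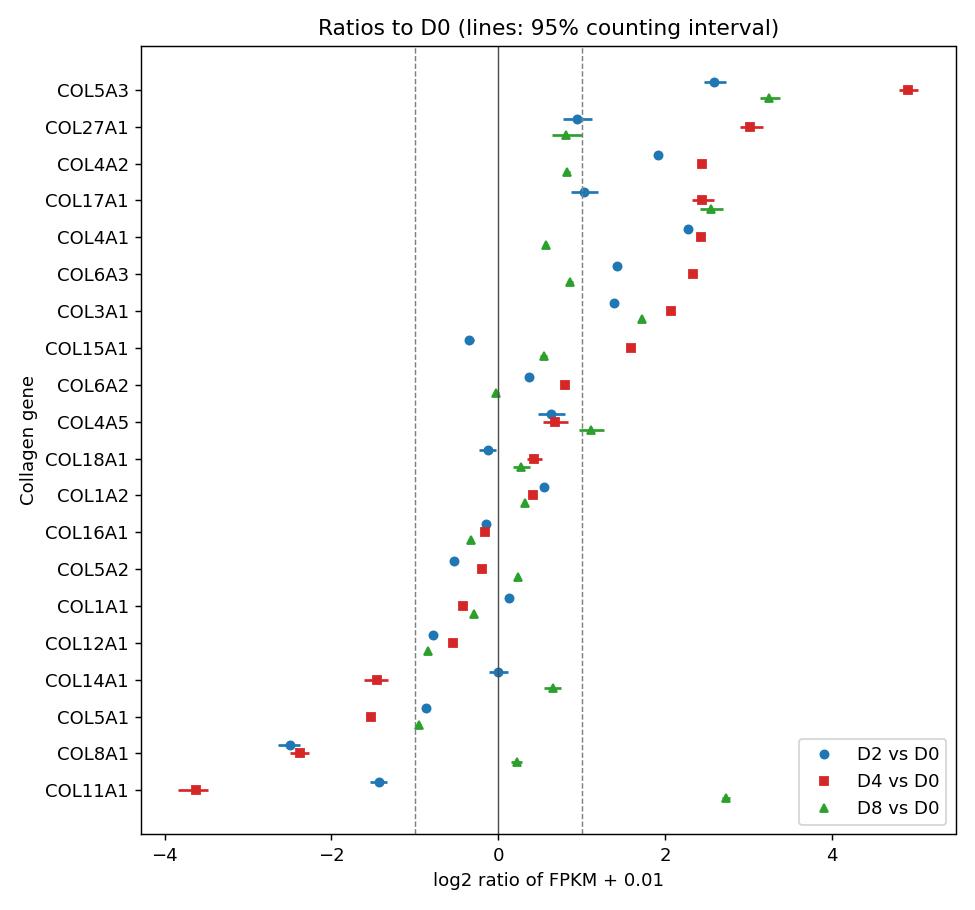
Points give the log2 ratio of FPKM + 0.01 to D0 (x axis) for the 20 reliably expressed collagen genes (y axis) at D2, D4 and D8, with lines for the 95% counting interval and dashed lines at 2-fold. COL5A3 lies farthest right at D4 (4.91) and COL11A1 farthest left at D4 (-3.63), and no gene lies left of the lower dashed line at D8.

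Genes that build and crosslink collagen changed little in sum. Of 30 such genes listed, 29 had a value and 24 were reliably expressed, and they summed to FPKM 2073, 2110, 1946 and 2230. At D4 vs D0, 1 was higher (LOXL2, a crosslinking oxidase, 111 to 277), against 10.4% of all mRNAs, and 4 were lower (LOXL3, LOXL4, P3H4 and P4HA1), against 8.81%. At D2 vs D0, 0 were higher (6.67% of all mRNAs) and 2 lower (10.1%), and at D4 vs D2, 0 were higher (4.24%) and 2 lower (0.838%), LOXL3 and LOXL4 both times. At D8 vs D4, 4 were higher (4.43%) and 1 lower (10.1%), and at D8 vs D0, 0 were higher (3.6%) and 3 lower (3.68%). P4HA1, a prolyl hydroxylase subunit needed for a stable helix, had 220, 132, 96.1 and 288, and SERPINH1, the collagen chaperone, had 304, 277, 219 and 364. Both were lowest at D4.

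Collagen-cleaving proteases moved more. Of 10 with a value, 8 were reliably expressed, and the 10 summed to FPKM 510, 877, 1038 and 535. MMP2, a gelatinase that also cleaves type IV collagen, had FPKM 99.3, 371, 481 and 96.8. MMP14, its membrane-bound activator, had 125, 271, 288 and 86.9. Both were high at D2 and D4, the libraries in which COL4A1 and COL4A2 were high.

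MMP1, an interstitial collagenase, ran the other way, with 64.2, 3.998, 6.38 and 19.8. The counts of proteases at least 2-fold higher and lower were 3 and 1 of 8 for D2 vs D0 (6.67% and 10.1% of all mRNAs), 0 and 0 for D4 vs D2 (4.24% and 0.838%), 2 and 3 for D8 vs D4 (4.43% and 10.1%), 2 and 2 for D4 vs D0 (10.4% and 8.81%), and 1 and 2 for D8 vs D0 (3.6% and 3.68%).

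Collagen receptors and uptake genes were fewer, with 6 of 13 reliably expressed and a sum of 392, 221, 204 and 261. That sum followed ITGB1, the shared beta subunit of the collagen-binding integrins, with FPKM 319, 126, 104 and 207. ANTXR1, a receptor that binds collagen, had 6.90, 19.1, 26.9 and 5.97. MRC2 (11.2, 18.0, 17.7 and 7.70) and DDR2 (25.3, 35.2, 36.8 and 19.9) were likewise higher at D2 and D4 than at D0 or D8. ANTXR2 (21.4, 19.7, 14.3 and 12.9) and ITGA11 (1.75, 1.08, 0.926 and 1.51) were below D0 at each later stage. The counts higher and lower were 1 and 1 of 6 for D2 vs D0, 0 and 0 for D4 vs D2, 0 and 2 for D8 vs D4, 1 and 1 for D4 vs D0, and 0 and 0 for D8 vs D0. Over all mRNAs the shares higher and lower were 6.67% and 10.1%, 4.24% and 0.838%, 4.43% and 10.1%, 10.4% and 8.81%, and 3.6% and 3.68% in the same order.

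Circular RNAs (circRNAs), in which a downstream exon end is joined back to an upstream one, were also listed for the family. Collagen genes held 53 circRNAs on their own strand, from 11 host genes, or 0.615% of 8623 circRNAs. They had 737 of 185750 junction reads (0.397%), with 248, 168, 157 and 164. Of the 53, 37 were seen in 1 library only and 3 in all 4. A circRNA was listed only from 2 junction reads, so a 0 here means fewer than 2.

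COL12A1 had the most circRNAs, 18, with 59, 95, 52 and 52 junction reads, and COL1A2 had 14, with 42, 16, 27 and 47. The most read circRNA came from COL5A1 (chromosome 1, 273972338 to 273979720) and had 85, 36, 41 and 26 junction reads. Scaled by mapped reads, its ratio to D0 was 0.480 at D2 (95% counting interval 0.315 to 0.716), 0.446 at D4 (0.2996 to 0.655) and 0.4004 at D8 (0.248 to 0.628). The linear COL5A1 level was lower than at D0 at these stages as well.

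Both of the next circRNAs came from COL12A1. That at 90803041 to 90805557 on chromosome 1 had 27, 32, 26 and 13 junction reads, and none of its 3 ratios to D0 had an interval clear of 1. That at 90816717 to 90819974 had 5, 11, 14 and 15, and its ratio of 3.93 at D8 had an interval of 1.36 to 13.8. A COL4A1 circRNA (chromosome 11, 76895272 to 76905003) had 11 reads at D0, 14 at D2 and 0 at D4 and D8, although linear COL4A1 was highest at D4. A COL1A2 circRNA (chromosome 9, 74193226 to 74200048) had 23 reads at D8 and 0 in the other libraries.

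Relative to linear fragments, COL24A1, singled out after its values were seen, had the most junction reads of the 11 hosts at D0 and at D4. It had 3 circRNAs with 21, 0, 7 and 0 junction reads, beside 46, 39, 52 and 28 linear fragments. Another 10 circRNAs, with 71 junction reads, lay inside COL3A1, COL5A2 and COL1A2 on the other strand, and 9 of them were seen in 1 library only.

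Annotated or assembled lncRNAs overlapped 8 members on the opposite strand. All 9 of these lncRNAs were below the expression filter. The one at COL15A1 had the highest single value, with FPKM 0.128, 0.262, 1.33 and 0.311, and overlapped the gene by 668 bases. In the other libraries the one at COL24A1 was higher, with 0.490, 0.829, 0.359 and 0.842. The library kit keeps strand, and whether the counting used it is not given in the sources used here, so low levels of such partners are uncertain.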

How the data were processed

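RNA of 3 piglets was pooled into 1 library for each of D0, D2, D4 and D8, and groups were taken from the stage labels. Per the labels, a directional kit was used after ribosomal RNA removal, and the submitters' processing notes name HISAT2 2.0.5 and BWA. The authors deposited FPKM for linear genes and SRPBM for circRNAs (junction reads scaled by mapped reads, CIRI, at least 2 junction reads) in the same column. The biotype of a row tells the units apart. The tool that counted fragments is not given in the sources used here.

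Library totals were recovered from the deposited FPKM of tRNA and miRNA genes, of which 93.3% to 95.0% came out as whole fragments within 0.01. The length of each member was the smallest whole number of bases, from 500 up, that made all 4 of its values whole. Fragment counts of members follow from these totals and lengths. They are minimums, because a multiple of a fitted length fits as well. SRPBM values were whole junction reads within 0.02 in 100% of cases. Ratios were taken on log2(FPKM + 0.01), the call was a ratio of at least 2, and the filter was FPKM of at least 1 in at least 3 libraries. With 1 library per stage no test was run. Intervals are exact Clopper-Pearson intervals of the 2 fragment counts, or Wilson intervals of a share, at 95%.

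Every reliably expressed member could be named, and others where they reached FPKM 1 or share a trimer with a named gene. Further members below the filter, among them COL21A1, COL24A1 and COL26A1, were named outside this rule. The 5 circRNAs with most junction reads on the host's strand were named. Macrophage and leukocyte markers, 4 with a value, summed to FPKM 3.32, 5.98, 7.80 and 3.00, mostly CD14. Alternatives were other pseudocounts, filters and scalings. The members and lists were chosen with earlier results of these data known. No sequences are shown, since no sequence table was used here. Python 3.11.15, numpy 2.4.6, pandas 2.3.3, scipy 1.17.1 and matplotlib 3.10.9 were used, and the scripts were tested on simulated data.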

Additional observations from a re-analysis of the deposited data

How the results depend on the processing

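With no filter on low FPKM the counts grew, mostly by genes under FPKM 0.1 but also by COL4A6, COL7A1, COL8A2, COL21A1 and COL26A1. They became 8 higher and 9 lower of 38 members at D2 vs D0, and 11 higher and 5 lower of 37 at D4 vs D2. At D8 vs D4 they were 6 higher and 11 lower of 37. At D4 vs D0 they were 15 higher and 10 lower of 39, and at D8 vs D0 8 higher and 6 lower of 39. Shares of all mRNAs were computed under the main settings only, so the counts here have no share beside them. With FPKM of at least 1 in all 4 libraries, COL11A1, COL14A1 and COL27A1 dropped out, which left 1 lower at D2 vs D0, 0 lower at D4 vs D2, 1 higher at D8 vs D4 and 2 lower at D4 vs D0. A pseudocount of 1 left 1 lower at D4 vs D2, as COL14A1 was lost there and at D4 vs D0, and COL17A1 at D2 vs D0 and COL4A5 at D8 vs D0 were lost as well. The summed FPKM ratio to D0 at D2, D4 and D8 was 1.51, 1.607 and 1.614 with median-ratio scaling, where D8 was the highest, 1.59, 1.72 and 1.44 with scaling to the protein-coding sum, and 1.48, 2.02 and 1.66 without COL1A2. Of 100 ratios of single genes, 40 were called. Of these, 36 remained with a pseudocount of 1 and 39 with median-ratio scaling, where COL15A1 was lost at D8 vs D4 and COL6A3 was added at D8 vs D0. Median-ratio scaling turned the sign of 5 ratios, none over 0.17 in size. The library with the highest level of each gene was compared across scalings after the data were seen. No paired analysis was possible because each stage has 1 library, and no library could be left out for the same reason. Members under FPKM 0.1 rest on at most 45 fragments at the smallest fitting length, so their ratios are not interpreted.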

Other observations

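COLEC12, which encodes a scavenger receptor with a collagen-like stretch and is no member of the family, was noticed after its values were seen. Its FPKM was 9.58, 39.5, 44.5 and 9.06 from D0 to D8, high at D2 and D4 and low at D0 and D8 like COL4A1 and COL4A2.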
